A study of Mus musculus with 8 samples.

Results

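A set of 8 genes that carry mutations in inherited amyotrophic lateral sclerosis (ALS) was followed through lumbar spinal cord captures of mice with spinal muscular atrophy (SMA) and of wild-type (WT) mice. The 8 genes, Sqstm1, Optn, Ubqln2, Vcp, Tardbp, Matr3, Sod1 and Vapb, were taken by name from the 23278 genes of the tables. All 8 were among the 13948 genes that reached at least 1 RPKM (read count divided by the length of the gene model and by the depth of the library) in at least 2 libraries and were tested. Ventral horn motor neurons and white matter were cut by laser from stained sections at postnatal day 1, before symptoms by the submitters' title, and each of the 4 groups has 2 libraries. The groups are WT motor neurons, SMA motor neurons, WT white matter and SMA white matter, all of the FVB/N strain. The SMA mice carried the genotype SMN2+/+;SMNΔ7+/+;Smn-/-, that is, no mouse Smn gene and homozygous transgenes for human SMN2 and for an SMN transcript that lacks an exon. The sources used here do not state whether the 2 libraries of a group came from separate mice. Xist and Ddx3y, given below, differ between them as between a female and a male source. The p-values reflect no more than the spread between these libraries.

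ALS is a disease of adult motor neurons, and its inherited forms have drawn attention to a few cell functions. Several of the genes handle damaged or ubiquitin-tagged proteins: Sqstm1 (p62) and Optn (optineurin) are receptors that hand ubiquitin-tagged cargo to autophagosomes, Ubqln2 (ubiquilin) carries such proteins to the proteasome, and Vcp is an ATPase that pulls them out of membranes and complexes. Tardbp encodes TDP-43 and Matr3 encodes matrin, which are nuclear RNA-binding proteins. Sod1 is the cytosolic superoxide dismutase, and Vapb anchors other proteins to the endoplasmic reticulum (ER) at its contacts with other membranes. SMA is also a motor neuron disease, but begins in infancy and is caused by loss of SMN, a protein that assembles spliceosomal ribonucleoproteins.

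Promoter sequences were taken from RefSeq for build GRCm38.p6, where 6 of the 8 genes had an entry. Those of Optn, Sqstm1 and Vapb are shown because these genes were the ones with an entry called as higher in motor neurons than in white matter of WT mice. Each runs 5′ to 3′ on the strand of the gene and begins 250 bases before the RefSeq start. That of Optn ends at the base before the start, and those of Sqstm1 and Vapb end after 243 and 190 bases, where a transcript of another annotation begins. Capitals mark a match to the core of the antioxidant response element, TGANNNNGC, the motif of the stress-response factor NFE2L2. Optn lies on the minus strand at chr2:5064118-5064367, Sqstm1 on the minus strand at chr11:50210828-50211070 and Vapb on the plus strand at chr2:173737321-173737510.
Optn: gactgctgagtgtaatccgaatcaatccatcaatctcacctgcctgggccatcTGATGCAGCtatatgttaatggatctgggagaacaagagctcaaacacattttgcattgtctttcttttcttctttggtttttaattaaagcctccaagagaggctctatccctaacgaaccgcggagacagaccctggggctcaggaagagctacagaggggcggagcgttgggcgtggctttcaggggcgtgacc
Sqstm1: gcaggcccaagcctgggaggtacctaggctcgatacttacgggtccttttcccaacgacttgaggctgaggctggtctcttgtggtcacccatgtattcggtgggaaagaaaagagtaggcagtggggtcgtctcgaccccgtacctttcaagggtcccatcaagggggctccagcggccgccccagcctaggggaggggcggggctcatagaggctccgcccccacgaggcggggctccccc
Vapb: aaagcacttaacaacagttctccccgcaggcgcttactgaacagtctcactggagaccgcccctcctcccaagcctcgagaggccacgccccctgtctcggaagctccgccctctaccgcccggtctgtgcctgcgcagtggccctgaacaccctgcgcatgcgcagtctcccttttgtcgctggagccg
The motif was searched on both strands in the 250 bases before the start. It was found in Optn, 197 bases before the start, and in Vcp and Sod1, and 35.2% of 32851 mouse promoters held a match. The core of the CLEAR element, CACGTG, the motif of the lysosomal regulator TFEB, was in 6.02% of promoters, and the heat shock element in 0.466%; neither was found in the 6 genes. The absence of a match says only that these letters are not in this window. GC content of the 250 bases was 66.4% for Sod1, 66.0% for Vapb, 63.6% for Tardbp, 63.2% for Sqstm1, 54.8% for Vcp and 50.0% for Optn, beside a median of 52.4% over all promoters.

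The libraries rest on 77.5 to 102.8 M reads each, as recovered from the steps of the RPKM values, with 45.1 to 68.2 M reads on genes. Mouse Smn1 was at 2.93 to 14.3 RPKM in the 4 WT libraries and at 0 in the 4 SMA libraries, as labelled. The sum of 8 motor neuron markers was 737 to 760 RPKM in motor neuron captures of WT mice, 619 to 639 RPKM in those of SMA mice and 7.83 to 24.6 RPKM in white matter, with 8 of 8 markers in both motor neuron groups and 5 of 8 in both white matter groups at a mean of 1 RPKM or more and none at 0. Myelinating oligodendrocyte markers summed to 1725 to 4540 RPKM in white matter and to 39.6 to 112 RPKM in the motor neuron captures. Between 19.4% and 33.4% of the summed RPKM came from Rn45s, the ribosomal RNA precursor. Its highest share was in SMA motor neuron replicate 2, which also had the fewest genes at 1 RPKM or more, 11539 against 11983 to 12796 in the other libraries. Replicate 1 of every group held Xist at 12.6 to 37.0 RPKM and no Ddx3y, and replicate 2 of every group held Xist at 0.0581 RPKM or less and Ddx3y at 0.628 RPKM or more. Each group therefore has 1 library with the pattern of a female source and 1 with that of a male source. Folds within a replicate number are given below as folds within that split.

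The 8 genes spanned a wide range of abundance on the RPKM scale, which corrects for gene length. By mean RPKM over the 8 libraries, Sod1 stood at percentile 95.2 of the tested genes, Sqstm1 at 91.9, Matr3 at 87.9, Ubqln2 at 86.1, Vcp at 76.7, Vapb at 65.2, Tardbp at 51.8 and Optn at 34.5. Optn was covered by 290 to 1371 reads per library and the others by 844 reads or more. In motor neurons of WT mice, 4 of the 8 genes exceeded their white matter level (adjusted p under 0.05, limma with Benjamini-Hochberg adjustment over all tested genes), namely Sqstm1, Ubqln2, Vapb and Optn, and none was lower. Of all tested genes, 28.4% were called in this comparison, 18.6% as higher and 9.85% as lower in motor neurons. Between SMA motor neurons and SMA white matter, Sqstm1 and Ubqln2 were called, both as higher in motor neurons, against 30.8% of all genes, with 13.6% higher and 17.2% lower. No member was called between SMA and WT, in either region.

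**Figure D1:**
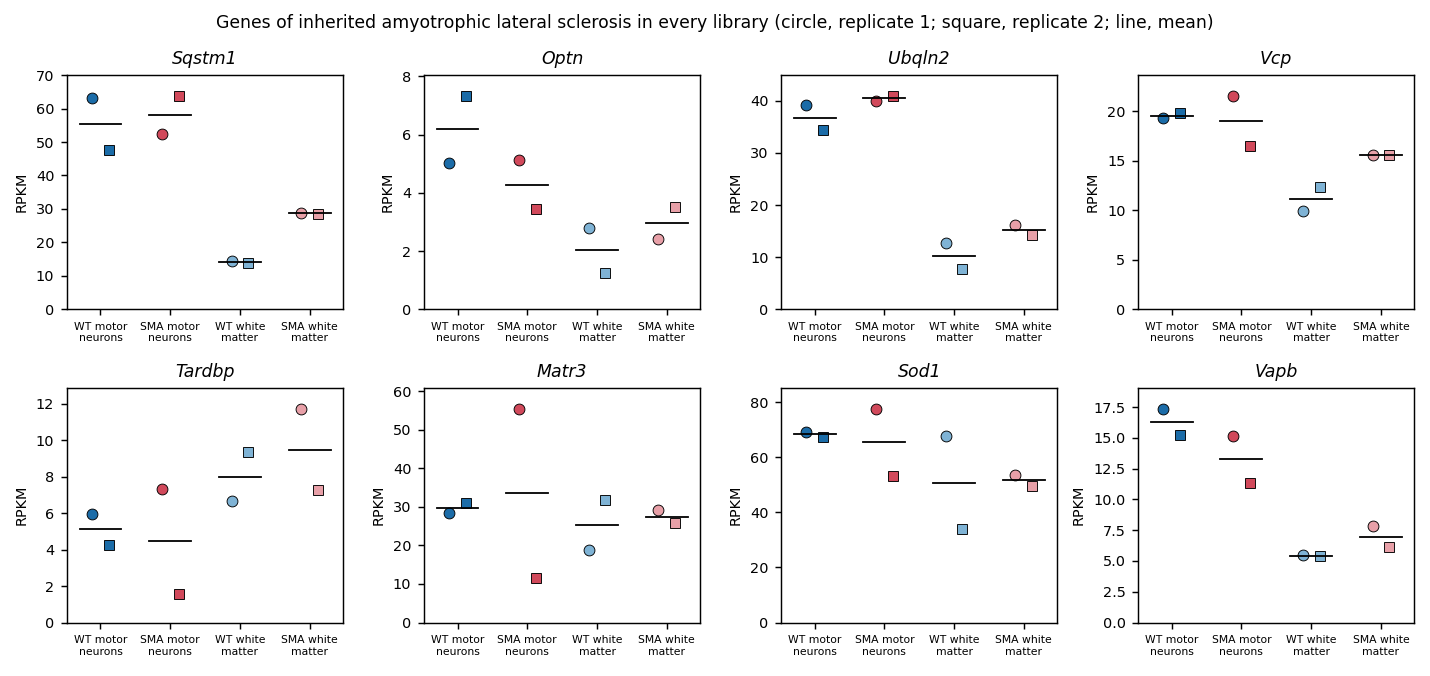
RPKM of the 8 genes (vertical axes, each from 0) in the 4 groups, with 1 point per library (circle, replicate 1; square, replicate 2) and a line at the mean of 2 libraries. Sqstm1, Ubqln2, Vapb and, by a narrow gap, Vcp sit higher in all 4 motor neuron libraries than in all 4 white matter libraries. The 2 SMA motor neuron libraries lie far apart for Tardbp and Matr3.

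Sqstm1, the autophagy receptor p62, had the largest difference between regions among the 8 genes in WT mice. It was at 63.1 and 47.7 RPKM in motor neurons of WT mice and at 52.4 and 63.8 RPKM in those of SMA mice, and in white matter at 14.6 and 13.9 RPKM in WT and at 28.8 and 28.5 RPKM in SMA mice. The 4 motor neuron libraries overlapped between genotypes and lay above all white matter libraries, and in white matter the SMA libraries were above the WT libraries. Motor neurons exceeded white matter 3.89-fold in WT mice, a log2(RPKM + 1) difference of 1.88 ± 0.25 (SE; limma, Benjamini-Hochberg adjusted p = 0.000605). Within replicates 1 and 2, that fold was 4.33 and 3.43. In SMA mice, the fold was 2.03, with a log2 difference of 0.99 ± 0.25 (limma, adjusted p = 0.0160). This call in SMA mice was lost without SMA white matter replicate 1 (adjusted p = 0.0714) or replicate 2 (0.0743), and with only the compared libraries in the fit (0.0589). The call in WT mice held in all 17 alternatives.

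The other autophagy receptor, Optn, was the least abundant of the 8 genes. Optn was at 5.04 and 7.33 RPKM in motor neurons of WT mice and at 5.12 and 3.44 RPKM in those of SMA mice, and in white matter at 2.79 and 1.24 RPKM in WT and at 2.40 and 3.51 RPKM in SMA mice. The WT groups did not overlap, whereas SMA motor neuron replicate 2 and SMA white matter replicate 2 were nearly equal. The WT difference was 3.06-fold, or 1.28 ± 0.40 in log2(RPKM + 1) (limma, adjusted p = 0.0373), and the fold was 1.80 within replicate 1 and 5.90 within replicate 2. The SMA difference was 0.41 ± 0.40 (adjusted p = 0.451). The WT call is fragile, being kept in 9 of 17 alternatives. It was lost without WT motor neuron replicate 1 (adjusted p = 0.0884) or 2 (0.216), WT white matter replicate 2 (0.255), or SMA white matter replicate 1 (0.0573) or 2 (0.0577), and with no filter (0.0806), equal sums without Rn45s (0.0780) or a term for the replicate number (0.0524).

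Sqstm1 and Optn were read beside 23 genes of autophagy receptors and their partners. Of these, 5 were higher and 2 lower in the motor neurons of WT mice than in their white matter, beside 18.6% and 9.85% of all tested genes. The median log2 difference was 0.19 (all tested genes, 0.08). In SMA mice 2 were higher and 4 lower, beside 13.6% and 17.2% of all genes (median -0.09, all genes -0.23). Nothing is read from the counts of the 23 genes. Leaving out 1 library gave 4 to 7 higher and 1 to 2 lower genes in WT mice, the 7 without either SMA motor neuron library and the 1 without WT motor neuron replicate 2 or either WT white matter library. In SMA mice it gave 1 to 3 higher and 3 to 9 lower, the 9 without SMA motor neuron replicate 1 and the 1 without SMA white matter replicate 2. With only the compared libraries 8 were higher in WT mice. Gabarapl1 and Map1lc3a, which coat autophagosomes and bind receptors such as p62, were higher in motor neurons by 2.30 (adjusted p = 0.000222) and 1.90 (adjusted p = 0.00136) in WT mice. Both also passed in SMA mice, with 1.42 and 1.20. Ulk1, the kinase that starts autophagy, and Atg9a, its membrane protein, differed by 1.52 and 1.48 in WT mice (adjusted p = 0.00254 and 0.00346). In SMA mice, the differences of these 2 genes were 0.65 and 0.56 and did not pass. Myo6, a myosin motor that binds optineurin, went the other way and was lower in motor neurons, at log2 differences of -2.37 in WT and -2.89 in SMA mice (adjusted p = 0.000451 and 0.000216). Nfe2l2, the stress-response factor that p62 releases from its inhibitor, was also lower, at -1.79 and -2.87 (adjusted p = 0.0143 and 0.00156). Nbr1, the receptor most related to p62, was at 10.2 ± 0.6 RPKM (SD, n = 2) in WT motor neurons and 15.5 ± 0.4 RPKM in WT white matter, which did not pass, and at 8.01 ± 2.84 against 23.0 ± 1.5 RPKM in SMA mice (log2 difference -1.45, adjusted p = 0.00656). The other genes called in this list, named after their values were seen, were Atg12, higher in WT mice, and Calcoco1, lower in SMA mice.

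Ubqln2, the ubiquilin that shuttles ubiquitin-tagged proteins, was higher in motor neurons than in white matter in both genotypes. It was at 39.2 and 34.3 RPKM in motor neurons of WT mice and at 39.9 and 40.9 RPKM in those of SMA mice, and in white matter at 12.7 and 7.69 RPKM in WT and at 16.2 and 14.2 RPKM in SMA mice. All 4 motor neuron libraries were above all 4 white matter libraries. The difference was 1.79 ± 0.29 in WT mice (3.61-fold; limma, adjusted p = 0.00167) and 1.36 ± 0.29 in SMA mice (2.66-fold; adjusted p = 0.00723). Within replicates 1 and 2 the fold was 3.08 and 4.47 in WT and 2.46 and 2.88 in SMA mice. Of 17 alternatives the WT call held in all, and the SMA call in all except the one without SMA white matter replicate 2 (adjusted p = 0.0521).

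Its 2 closest relatives in the tables, Ubqln1 and Ubqln4, were also more abundant in motor neurons on average. Ubqln1 was at 50.8 and 47.7 RPKM in WT motor neurons against 26.1 and 24.2 RPKM in WT white matter (log2 difference 0.94 ± 0.23; limma, adjusted p = 0.0143). In SMA mice it was at 43.9 and 37.4 against 32.2 and 29.9 RPKM, a difference of 0.38 that did not pass (adjusted p = 0.247). The WT call of Ubqln1 was kept in 11 of 17 alternatives. It was lost under quantile normalization, under equal sums without Rn45s and without any 1 of the WT libraries. Ubqln4 passed in SMA mice, with 17.7 ± 5.6 against 7.92 ± 1.53 RPKM (SD, n = 2) and a log2 difference of 1.05 (limma, adjusted p = 0.0359). It did not pass in WT mice (0.79, adjusted p = 0.0996). The SMA call was kept in 8 of 17 alternatives. It was lost with no filter, with only the compared libraries and without any 1 library except SMA motor neuron replicate 2. Of the 11 ubiquilins and ubiquitin genes tested, 6 were higher and 2 lower in motor neurons of WT mice (median 0.94). The shares of all tested genes were 18.6% and 9.85% (median 0.08). In SMA motor neurons 4 of the 11 were higher and 2 lower (median 0.38), beside 13.6% and 17.2% of all genes (median -0.23). Uchl1, a deubiquitinating enzyme very abundant in neurons, stood at 691 ± 14 RPKM in WT motor neurons and 43.7 ± 11.5 RPKM in WT white matter (SD, n = 2; log2 difference 3.98). The ubiquitin-activating enzyme Uba1 and the ubiquitin gene Ubb were higher in WT motor neurons by 1.21 and 0.82 (limma, adjusted p = 0.00384 and 0.0127). The call of Uba1 was kept in 16 of 17 alternatives, all except quantile normalization. That of Ubb was kept in 10 of 17, being lost under all 3 scalings and without any 1 of the WT libraries. Rps27a, which encodes ubiquitin fused to a ribosomal protein, was lower, at -1.40 (limma, adjusted p = 0.0143). It was low in both WT groups, at 1.40 ± 0.61 against 5.27 ± 0.46 RPKM (SD, n = 2), and covered by 62 to 514 reads per library. Its WT call was kept in 13 of 17 alternatives and its SMA call in 2 of 17. In SMA mice the count of 2 lower genes fell to 1 in every alternative that kept all libraries, except equal sums without Rn45s. The number of higher genes in WT mice was 1 under quantile normalization and 3 under equal sums without Rn45s. It was 2 without WT motor neuron replicate 1 or WT white matter replicate 2, 3 without WT motor neuron replicate 2 or WT white matter replicate 1, and 9 without either SMA motor neuron library, and the 2 lower genes were 0 or 1 without any 1 of the WT libraries. In SMA mice the higher genes were 1 without SMA white matter replicate 2 and 2 without either WT motor neuron library.

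Vcp, the segregase, was at 19.3 and 19.8 RPKM in motor neurons of WT mice and at 21.6 and 16.5 RPKM in those of SMA mice, and in white matter at 9.97 and 12.4 RPKM in WT and at 15.6 RPKM in both libraries of SMA mice. All 4 motor neuron libraries lay above all 4 white matter libraries. The WT difference of 0.76 ± 0.27 (1.75-fold) did not pass (limma, adjusted p = 0.0622). It passed without SMA motor neuron replicate 1 (adjusted p = 0.0262) or replicate 2 (0.0263), with only the compared libraries (0.0365) and with no filter (0.0485). The SMA difference was 0.26 ± 0.27 (adjusted p = 0.491). Among 23 VCP cofactors tested, 4 were higher and none lower in motor neurons of WT mice (median 0.23), and 2 were higher and none lower in SMA motor neurons (median -0.05). These are 4 and 2 of 23 where 18.6% and 13.6% of all genes were higher, and nothing is read from the counts. The 4 were Ube4b, a ubiquitin chain elongation factor, with 1.37 (adjusted p = 0.00180), Nsfl1c (p47) with 1.23, Ubxn2a with 1.29 and Aspscr1 with 1.19. The WT calls of Ubxn2a and Aspscr1 were kept in 6 and 9 of 17 alternatives, and both were lost with no filter, with equal sums without Rn45s and with a term for the replicate number. Of the 4, Ube4b and Nsfl1c also passed in SMA mice, with 1.04 and 0.95. These SMA calls were kept in 16 and 8 of 17 alternatives, that of Nsfl1c being lost with no filter, only the compared libraries and voom, among others. The WT count was 1 without WT motor neuron replicate 1 or 2 or WT white matter replicate 2, and 6 without either SMA motor neuron library. The SMA count was 0 without SMA white matter replicate 2, and without SMA motor neuron replicate 1 a further 4 cofactors were lower.

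Neither of the 2 RNA-binding members was called between regions. Tardbp, encoding TDP-43, was at 5.95 and 4.26 RPKM in motor neurons of WT mice and at 7.32 and 1.58 RPKM in those of SMA mice, and in white matter at 6.66 and 9.34 RPKM in WT and at 11.7 and 7.25 RPKM in SMA mice. It was the only member whose mean was lower in motor neurons in both genotypes. In the WT mice the groups did not overlap, whereas in SMA mice motor neuron replicate 1 lay just above white matter replicate 2. The log2 difference was -0.56 ± 0.52 in WT mice (limma, adjusted p = 0.466) and -1.14 ± 0.52 in SMA mice (adjusted p = 0.124; 95% interval -2.32 to 0.03). Without SMA motor neuron replicate 1, the SMA difference was -1.99 (adjusted p = 0.00406), and without replicate 2 it was -0.30 (adjusted p = 0.594).

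Matr3 was at 28.3 and 31.0 RPKM in motor neurons of WT mice and at 55.4 and 11.6 RPKM in those of SMA mice, and in white matter at 18.7 and 31.7 RPKM in WT and at 29.2 and 25.8 RPKM in SMA mice. The 2 SMA motor neuron libraries were the highest and the lowest of all 8. The region differences were 0.27 ± 0.57 in WT (limma, adjusted p = 0.766) and -0.09 ± 0.57 in SMA mice (adjusted p = 0.918). The sign in SMA mice followed the library left out, being -1.17 without SMA motor neuron replicate 1 (adjusted p = 0.0192) and 0.99 without replicate 2 (adjusted p = 0.0439). It was 0.10 under median-of-ratios scaling, and in WT mice the sign turned under quantile normalization (-0.18) and equal sums without Rn45s (-0.13).

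**Figure D2:**
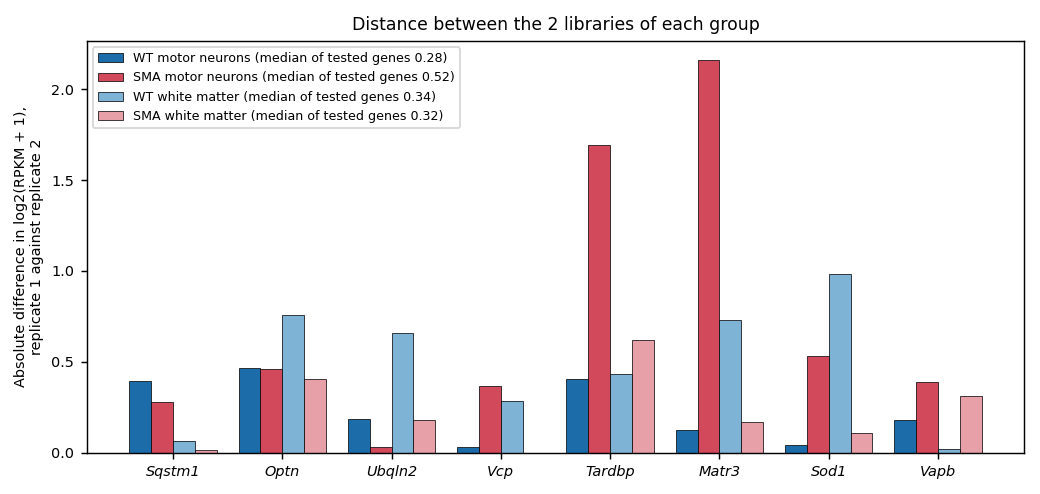
Absolute difference in log2(RPKM + 1) between replicates 1 and 2 of each group (vertical axis) for the 8 genes, with 1 bar per group and the median of all tested genes given in the key. The bars of Matr3 and Tardbp in SMA motor neurons are the tallest, at 2.16 and 1.69 beside a median of 0.52, followed by Sod1 in WT white matter.

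The agreement of replicates differed widely among the 8 genes. Between the 2 SMA motor neuron libraries, Matr3 differed 4.76-fold and Tardbp 4.64-fold, absolute log2(RPKM + 1) differences of 2.16 and 1.69 that stood at percentiles 97.3 and 93.3 of all tested genes. The median gene differed by 0.52 in that group, against 0.28 in the other motor neuron group and 0.34 (WT) and 0.32 (SMA) in white matter. In WT motor neurons the same 2 genes differed by 0.13 and 0.40. Sod1 differed 2.01-fold in WT white matter, at percentile 92.6. At the other end, Vcp and Sqstm1 differed by 1.00-fold and 1.01-fold between the SMA white matter libraries. In the plot of replicate differences, these 2 bars are close to 0.

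Among 24 nuclear RNA-binding partners of TDP-43 and matrin, the WT comparison called 3 higher and 2 lower in motor neurons, beside 18.6% and 9.85% of all genes. It left 19 uncalled (median -0.39, all genes 0.08). In SMA mice 2 were higher and 7 lower, beside 13.6% and 17.2% of all genes, with 15 not called (median -0.70, all genes -0.23). The higher ones were the neuronal Elav proteins, which stabilise messages in neurons: Elavl4 by 3.26, Elavl2 by 3.59 and Elavl3 by 1.49 in WT mice (limma, adjusted p = 7.29e-05, 0.000126 and 0.0128). Of these, Elavl4 and Elavl2 passed in SMA mice, by 2.19 and 2.72. Ptbp1, a splicing repressor that neurons switch off, was lower, at -1.53 in WT (adjusted p = 0.00423) and -1.74 in SMA mice (adjusted p = 0.00254). Celf2 was lower as well, at -1.48 and -1.45 (limma, adjusted p = 0.0257 and 0.0268). Both calls of Celf2 were kept in 12 of 17 alternatives and lost with no filter. The WT call was also lost without any 1 of the 4 WT libraries. The SMA call was also lost with only the compared libraries and without SMA motor neuron replicate 2 or either SMA white matter library. Hnrnpm was lower in SMA mice, at -1.62 (adjusted p = 0.0114), and its WT value of -0.93 did not pass. The count of 7 lower genes in SMA mice was 13 without SMA motor neuron replicate 1, and 1 and 3 without SMA white matter replicates 1 and 2. In WT mice the count of 2 lower genes was 4 and 5 without SMA motor neuron replicates 1 and 2, 1 without any 1 of the 4 WT libraries, and 9 under quantile normalization and under equal sums without Rn45s.

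Sod1 was the most abundant of the 8 genes in every group by mean. It was at 69.3 and 67.4 RPKM in motor neurons of WT mice and at 77.5 and 53.4 RPKM in those of SMA mice, and in white matter at 67.9 and 33.8 RPKM in WT and at 53.7 and 49.7 RPKM in SMA mice. Motor neurons and white matter overlapped in both genotypes, in WT mice through white matter replicate 1. The region differences were 0.50 ± 0.33 in WT (limma, adjusted p = 0.293) and 0.31 ± 0.33 in SMA mice (adjusted p = 0.499), with 95% intervals of -0.24 to 1.25 and -0.43 to 1.05. Under quantile normalization the WT difference was -0.06.

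Of 18 tested genes for the removal of superoxide and peroxide, 5 were higher and 2 lower in motor neurons of WT mice (median 0.54). The shares of all tested genes were 18.6% and 9.85% (median 0.08). In SMA motor neurons 2 of the 18 were higher and 4 lower (median 0.15), beside 13.6% and 17.2% of all genes (median -0.23). Nothing is read from these counts. Sod2, the mitochondrial superoxide dismutase, was at 34.8 ± 6.8 RPKM in WT motor neurons and 14.2 ± 1.7 RPKM in WT white matter (SD, n = 2; log2 difference 1.22; limma, adjusted p = 0.0168). In SMA mice it was at 29.0 ± 8.5 against 20.2 ± 5.1 RPKM, which did not pass. Prdx5, a peroxiredoxin, was higher in motor neurons by 1.96 in WT and 1.67 in SMA mice, and Prdx6 was lower, at -1.20 and -1.38. The thiol reductants Glrx and Txn1 were higher in WT motor neurons by 1.25 and 1.12, and Gpx8 was lower, at -1.61. Under quantile normalization the WT count was 2 higher and 4 lower. It was 2 higher without WT motor neuron replicate 1 or 2 or WT white matter replicate 2, and 3 without WT white matter replicate 1. The 2 lower became 0 without WT motor neuron replicate 2 and 1 without any other WT library. In SMA mice the 4 lower became 2 without SMA white matter replicate 1, and the 2 higher became 1 without SMA motor neuron replicate 2, SMA white matter replicate 2 or either WT motor neuron library. Prdx2, higher in WT mice, and Prdx4, lower in SMA mice, were also called and are named after their values were seen. Sod3, the extracellular enzyme, was at 0.536 RPKM or less in all libraries and was not tested.

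Ccs, the chaperone that loads copper into Sod1, had a pattern of its own beside its client. It was at 6.92 and 6.15 RPKM in motor neurons of WT mice and at 1.78 and 3.56 RPKM in those of SMA mice, and in white matter at 7.58 and 7.39 RPKM in WT and at 16.6 and 9.85 RPKM in SMA mice. Both SMA motor neuron libraries were below, and both SMA white matter libraries above, all 4 WT libraries. Motor neurons were lower than white matter in SMA mice, at -1.95 ± 0.37 (limma, adjusted p = 0.00417), in all 17 alternatives, whereas the WT difference was -0.17 ± 0.37 (adjusted p = 0.769). The test of the difference between these differences did not pass (-1.78 ± 0.52; limma, unadjusted p = 0.00708, adjusted p = 0.883). Between SMA and WT, the values were -1.08 ± 0.37 in motor neurons (adjusted p = 0.924) and 0.70 ± 0.37 in white matter (adjusted p = 0.741), and neither passed.

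Vapb, the ER tether, was at 17.3 and 15.2 RPKM in motor neurons of WT mice and at 15.2 and 11.4 RPKM in those of SMA mice, and in white matter at 5.48 and 5.39 RPKM in WT and at 7.81 and 6.10 RPKM in SMA mice. All 4 motor neuron libraries were above all 4 white matter libraries. The WT difference was 2.99-fold, or 1.42 ± 0.30 in log2(RPKM + 1) (limma, adjusted p = 0.00639), with folds of 3.16 and 2.82 within replicates 1 and 2. It was past the threshold in 16 of 17 alternatives, the exception being without WT motor neuron replicate 1 (adjusted p = 0.0646). The SMA difference of 0.84 ± 0.30 (1.91-fold) just missed the threshold (adjusted p = 0.0581). It passed under median-of-ratios scaling (adjusted p = 0.0161), quantile normalization (0.0227), equal sums without Rn45s (0.0464) and voom (0.0321), and without SMA motor neuron replicate 2 (0.0324).

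Vapa, the paralog of Vapb, was more abundant, at 54.4 and 50.0 RPKM in WT motor neurons and 33.4 and 34.7 RPKM in WT white matter, a log2 difference of 0.60 ± 0.39 that did not pass (limma, adjusted p = 0.286). In SMA motor neurons it was at 77.2 and 28.5 RPKM, replicate 2 being the lower as for Matr3 and Tardbp, and in SMA white matter at 41.4 and 43.2 RPKM. Of 18 tested genes of the VAP family and ER contact proteins, 3 were higher and none lower in motor neurons of WT mice (median 0.29), and 1 was higher and 1 lower in SMA motor neurons (median -0.12). With 18.6% and 13.6% of all genes higher, nothing is read from these counts either. The 3 were Pitpnm1, a lipid transfer protein that binds VAP proteins, with 2.39 (adjusted p = 0.000627), Osbpl6 with 1.50 and Mospd3 with 1.48. In SMA mice, Pitpnm1 was higher by 2.15, in all 17 alternatives, and Mospd1 was lower, at -1.80. The call of Mospd1 was kept in 8 of 17 alternatives. It was lost with no filter, quantile normalization, a term for the replicate number and voom, among others. Mospd1 was at 0.629 and 0.0485 RPKM in SMA motor neurons against 5.28 and 2.28 RPKM in SMA white matter. The WT count was 1 without WT motor neuron replicate 1, and 6 without either SMA motor neuron library or with only the compared libraries. In SMA mice the higher genes were 5 under median-of-ratios scaling and 3 without SMA motor neuron replicate 2, and the lower ones 5 without its replicate 1.

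**Figure D3:**
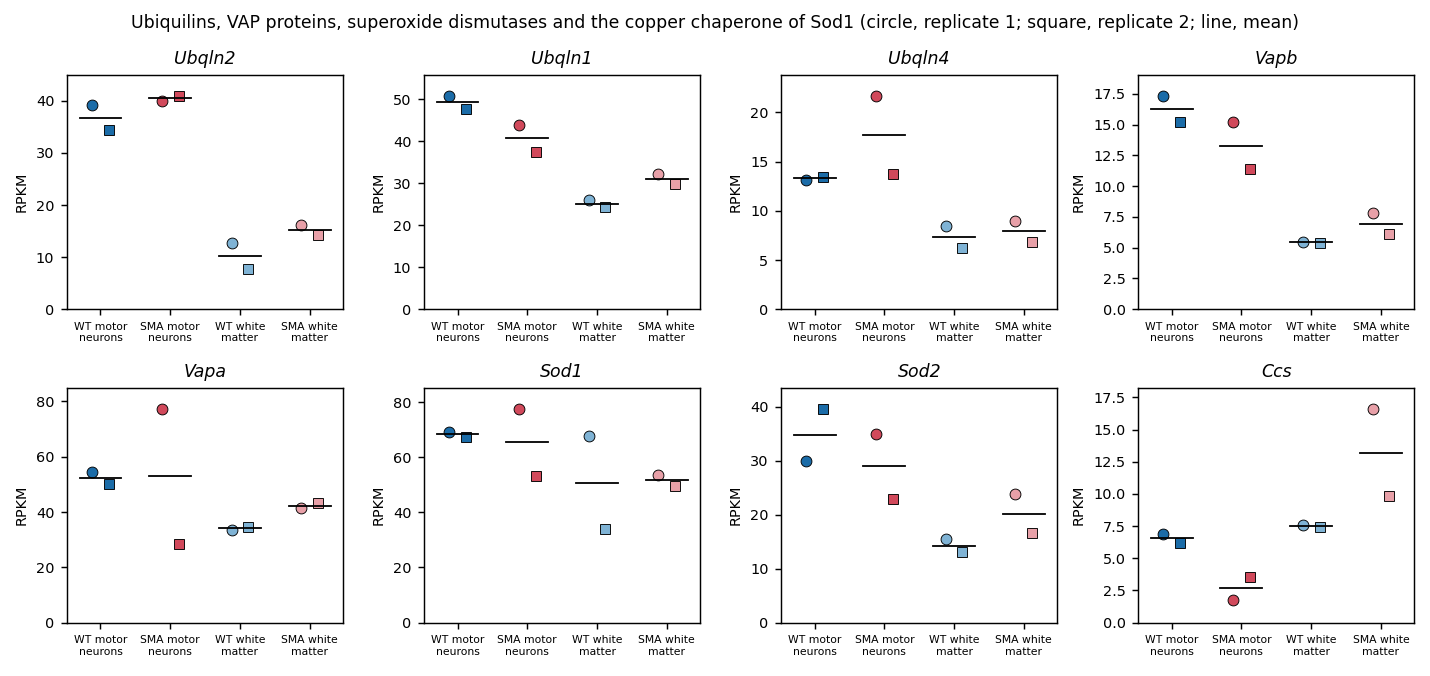
RPKM of Ubqln2, Vapb and Sod1 beside Ubqln1, Ubqln4, Vapa, Sod2 and Ccs (vertical axes, each from 0) in the 4 groups, with 1 point per library and a line at the mean of 2 libraries. Ccs sits lowest in SMA motor neurons, at 1.78 and 3.56 RPKM, and highest in SMA white matter, at 16.6 and 9.85 RPKM.

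Of the 33 further ALS genes in the tables, 32 were tested. In WT mice 12 were higher in motor neurons and 1 lower (median 0.29), beside 18.6% and 9.85% of all tested genes. In SMA mice 10 were higher and 4 lower (median 0.05), beside 13.6% and 17.2% of all tested genes. The higher genes numbered 10 to 13 and 8 to 12 when 1 library was left out, and the lower ones moved more. In WT mice 4 were lower without either SMA motor neuron library, 0 without any 1 of the WT libraries and 6 under equal sums without Rn45s. In SMA mice 8 were lower without SMA motor neuron replicate 1, 2 without either WT motor neuron library and 1 without either SMA white matter library. The largest differences were in genes of the axonal skeleton: Prph (peripherin) was at 142 ± 13 RPKM in WT motor neurons and 2.14 ± 0.45 RPKM in WT white matter, and Nefh, the heavy neurofilament, at 120 ± 29 and 1.71 ± 1.10 RPKM (SD, n = 2). Both genes are also in the list of motor neuron markers. Tuba4a, a tubulin, differed by 3.38, Chchd10, a mitochondrial protein, by 3.61, Kif5a, an axonal transport motor, by 2.63, and Unc13a, a synaptic vesicle priming factor, by 2.90 on the log2 scale. These 6 genes passed in both genotypes and in all 17 alternatives (limma, adjusted p under 0.05). The lower gene in WT mice was Erbb4, a neuregulin receptor, and those in SMA mice were Erbb4, Glt8d1, Grn and Sptlc1, all named after their values were seen. Set against these, the differences of the 8 genes in WT mice ran from -0.56 to 1.88, with a median of 1.02 beside 0.08 for all tested genes. In SMA mice they ran from -1.14 to 1.36, with a median of 0.36 beside -0.23.

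**Figure D4:**
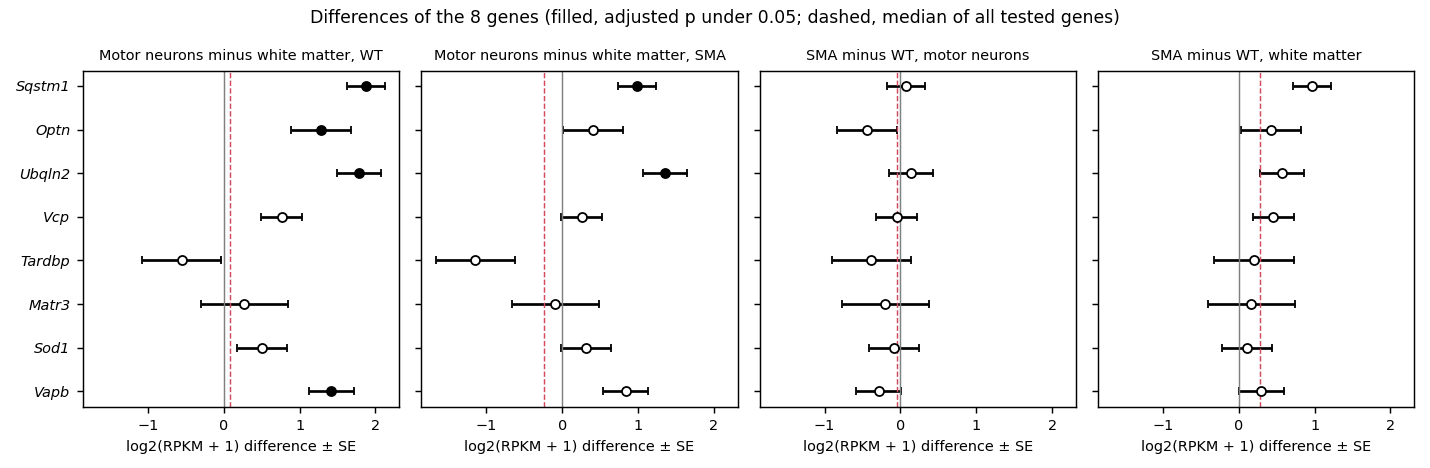
Difference in log2(RPKM + 1) with its SE for the 8 genes in 4 comparisons (horizontal axes), each from 2 libraries against 2. Filled points mark adjusted p under 0.05, and the dashed line is the median of all tested genes, which lies at 0.27 for SMA minus WT in white matter.

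The region differences of the 2 genotypes were set against each other by the interaction, the SMA effect in motor neurons minus that in white matter. All 8 values were negative, from -0.89 for Sqstm1 to -0.19 for Sod1, beside a median of -0.34 over all genes, 24.2% of which were positive. The sign turned for Sod1 under median-of-ratios scaling (0.18), quantile normalization (0.17) and equal sums without Rn45s (0.16), and for Matr3 under quantile normalization (0.04). It was also positive without SMA motor neuron replicate 2 for Sod1, Tardbp and Matr3, without WT white matter replicate 2 for Sod1, and without WT white matter replicate 1 for Matr3. No member passed (limma, adjusted p from 0.883 to 0.941), nor did any other gene (0.0%). By unadjusted limma p, 693 genes were under 0.05, and of the members only Sqstm1 was among them. The voom fit called no gene. Genes called in WT and missed in SMA mice, such as Optn and Vapb, are thus not shown to differ between genotypes.

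In motor neurons, no member was called between SMA and WT mice. The log2 differences ran from -0.44 for Optn to 0.14 for Ubqln2, all with an adjusted p of 1.0 (limma), and 2 were positive and 6 negative. None of the 13948 genes passed (0.0%), 609 had an unadjusted p under 0.05 but none of the 8 did, and voom called 0 genes. Without SMA motor neuron replicate 1, which leaves replicate 2 alone in its group, 123 genes were called and none of the 8. The 95% intervals still allow sizeable changes: -0.49 to 0.64 for Sqstm1, -1.33 to 0.44 for Optn, -0.51 to 0.78 for Ubqln2, -0.66 to 0.56 for Vcp, -0.83 to 0.66 for Sod1 and -0.95 to 0.38 for Vapb. The intervals were wider for Tardbp, -1.56 to 0.79, and Matr3, -1.48 to 1.08. Groups did not overlap for Ubqln2, which was higher in SMA libraries, and for Vapb, which was lower by the narrow gap of 15.19 to 15.2 RPKM, where 12.7% of all genes were higher and 15.5% lower without overlap. Leaving out SMA motor neuron replicate 2 turned the sign of Sod1, Tardbp, Vcp, Matr3 and Sqstm1, Matr3 reaching 0.88 against -0.20 with all libraries. Microglia markers summed to 81.7 to 107 RPKM in the SMA captures, with 10 of 10 at a mean of 1 RPKM or more, and to 43.2 to 43.7 RPKM in the WT captures, with 6 of 10. Spinal interneuron markers summed to 73.0 to 77.9 RPKM (7 of 8) in SMA against 40.5 to 65.3 RPKM (6 of 8) in WT captures, myelinating oligodendrocyte markers to 77.9 to 112 (5 of 7) against 39.6 to 63.4 RPKM (3 of 7), and meningeal fibroblast markers to 7.14 to 15.1 (3 of 4) against 3.63 to 4.62 RPKM (1 of 4, with Lum at 0). The motor neuron markers had summed to less in the SMA captures, as given above. Oligodendrocyte precursor, astrocyte, endothelial, pericyte and red blood cell marker sums overlapped between the SMA and WT captures. Schwann cell markers summed to 0.233 RPKM or less in these captures. The part of these cells in the members' values was not tested.

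In white matter, all 8 means lay above WT in SMA mice, and no member passed the test. The differences ran from 0.11 for Sod1 to 0.96 for Sqstm1 (limma, adjusted p from 0.727 to 0.962), beside a median of 0.27 over all genes, 80.0% of which were positive. Of all genes, 0.0% were called, 880 had an unadjusted p under 0.05, and voom called 1 gene, which was not a member. The median of all genes was 0.00 under median-of-ratios scaling, -0.01 under quantile normalization and -0.02 under equal sums without Rn45s. Under these 3 scalings the values of Sod1, Tardbp and Matr3 turned negative, as did that of Vapb under the last 2. Vcp, Sqstm1, Ubqln2 and Vapb were higher in both SMA libraries than in both WT libraries and none was lower in that way, where 39.7% of all genes were higher and 4.17% lower without overlap. The 4 of 8 higher members were read against that share and set nothing apart.

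Sqstm1 was the member with the largest SMA difference in white matter, 2.02-fold and 0.96 ± 0.25 on the log2 scale, with a 95% interval of 0.40 to 1.52 (limma, unadjusted p = 0.00357, adjusted p = 0.727). The fold was 1.98 within replicate 1 and 2.05 within replicate 2, and the log2 difference stayed between 0.62 and 1.01 over 17 alternatives, whose adjusted p ranged from 0.351 to 1.0. In motor neurons its interval was centred near 0. Averaged over both regions it differed by 0.52 (adjusted p = 0.761; all genes called, 0.0%), where 836 genes, among them 1 member, had an unadjusted p under 0.05 and voom called 1 gene and no member. Several marker sums were also higher in SMA white matter than in WT white matter, where 39.7% of all genes were higher without overlap. Microglia markers, 10 of 10 detected, summed to 350.0 to 406 against 260 to 306 RPKM, and oligodendrocyte precursor markers, 7 of 7, to 680.0 to 853 against 551 to 611 RPKM. Endothelial markers, 6 of 6, summed to 26.4 to 38.8 against 13.3 to 16.7 RPKM, and meningeal fibroblast markers, 4 of 4, to 115 to 185 against 52.7 to 86.6 RPKM. Pericyte markers, with 4 of 4 against 3 of 4 at a mean of 1 RPKM or more, summed to 12.5 to 19.5 against 5.38 to 7.67 RPKM, and Schwann cell markers, with 2 of 3 against 1 of 3, to 9.10 to 33.9 against 1.58 to 5.63 RPKM. Spinal interneuron markers, with 6 of 8 against 3 of 8, summed to 12.5 to 12.6 against 3.95 to 11.8 RPKM. Motor neuron markers, with 5 of 8 in both, overlapped slightly, at 11.6 to 24.6 against 7.83 to 11.9 RPKM. Astrocyte markers also overlapped, at 703.4 to 876.2 against 566.9 to 720.5 RPKM. So did myelinating oligodendrocyte markers, at 2297 to 4540 against 1725 to 3641 RPKM, and red blood cell markers, at 948.6 to 3403 against 537.6 to 1353 RPKM. No marker of these lists was at 0 in both libraries of a white matter group, and the part of these cells in the Sqstm1 difference was not tested. In such bulk captures, more cells of a type and more RNA per cell cannot be told apart.

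None of the related lists gave a call between SMA and WT either, in motor neurons, in white matter, over both regions or in the interaction (limma; lowest adjusted p 0.612). In white matter, 22 of 23 autophagy genes had a positive difference (median 0.48), as had 11 of 11 ubiquilin and ubiquitin genes (median 0.51), 18 of 18 superoxide and peroxide genes (median 0.36), 23 of 24 nuclear RNA-binding genes (median 0.37), 29 of 32 other ALS genes (median 0.31), 16 of 18 VAP and ER contact genes (median 0.27) and 18 of 23 VCP cofactors (median 0.27), where 80.0% of all genes were positive and their median was 0.27. In motor neurons the medians of the 7 lists lay between -0.25 and 0.10, beside -0.05 for all genes. Unadjusted p was under 0.05 in white matter for 4 autophagy genes, 4 ubiquilin and ubiquitin genes, 3 other ALS genes, 1 superoxide and peroxide gene and 1 nuclear RNA-binding gene. In motor neurons it was so for 3 superoxide and peroxide genes, 1 autophagy gene and 1 other ALS gene.

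For each of the 8 genes, the tested genes with the most similar profile over the 8 libraries were found by the root mean square difference of centred log2(RPKM + 1) values. Likeness in any single group or library follows from this choice and is no separate result. Sqstm1 was nearest to Ctif (0.144), Cdh13 (0.155) and Cplx2 (0.160), and Ubqln2 to Fscn1 (0.087), Hcfc1r1 (0.095) and Nptx1 (0.099). Cplx2, the synaptic complexin, was at 27.4 and 19.4 RPKM in motor neurons of WT mice, and in white matter at 5.03 and 6.19 RPKM in WT and 15.7 and 11.1 RPKM in SMA mice. Vapb was nearest to Eif2c2, an Argonaute gene (0.069), Steap2 (0.083) and Pnma3 (0.090), and Optn to Ccdc56 (0.140), Tmem181c-ps (0.141) and Tk2 (0.155). Vcp had the closest neighbour of all, Fam20b (0.038), followed by Ftsjd2 (0.082) and Ube2d3 (0.093). Tardbp was nearest to Cdv3 (0.089), Dtna (0.121) and Npat (0.129), and Matr3 to BC024659 (0.124), Cacybp (0.126) and Fam103a1 (0.136). By this choice, these 6 genes share the wide gap between the SMA motor neuron libraries, such as 13.7 and 3.26 RPKM for Cdv3 and 30.9 and 8.19 RPKM for Cacybp. Sod1 was nearest to Atg4b (0.078), Unc119 (0.107) and 5430437P03Rik (0.110), and in WT white matter Atg4b was at 6.71 and 3.07 RPKM, a gap like that of Sod1.

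Some members overlap other genes in a GENCODE annotation of the mouse, used here for gene names only, and the deposited values do not say whether strand was used in counting. Sod1 overlaps the antisense gene Scaf4, at 9.16 to 19.5 RPKM, and Tardbp overlaps the antisense gene Masp2, at 0.897 to 4.81 RPKM. Vcp overlaps 1700022I11Rik, at 0.152 RPKM or less. Reads of such pairs cannot be told apart where the genes overlap. Optn, Sqstm1 and Matr3 overlap genes that were not analysed here, and Ubqln2 and Vapb overlap none.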

How the data were processed

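Deposited values were RPKM per gene, 1 table per library. Per the submitters' processing notes, the authors used TopHat, bedtools and DESeq with build mm9; no version, gene annotation or use of strand is recorded there. Per the labels' protocols, total RNA from laser captures was amplified to double-stranded cDNA (Ovation RNA-seq System V2), which can widen the spread of low inputs. Low RPKM values are multiples of what 1 read is worth. For 17430 of 17431 genes (99.99%) above 0 in at least 3 libraries these multiples gave whole reads within 0.02 read. Depths came from this.

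Values were tested as log2(RPKM + 1) with limma 3.58.1 (R 4.3.3; 4 group means over all 8 libraries, eBayes with trend, two-sided), after a filter of at least 1 RPKM in at least 2 libraries, with Benjamini-Hochberg adjustment over 13948 genes and a threshold of 0.05. Fold changes are ratios of mean RPKM, and the log2 scale with a pseudocount of 1 understates changes of low genes. An alternative chosen after seeing the data ran voom on the recovered reads (13935 genes). The other alternatives were pseudocounts of 0.1 and 0.5, no filter, 3 scalings, only the compared libraries, a term for the replicate number and each library left out.

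The 8 genes and the 7 lists (other ALS genes; autophagy receptors and their partners; VCP cofactors; ubiquilins and ubiquitin genes; VAP family and ER contact proteins; superoxide and peroxide removal; nuclear RNA-binding partners of TDP-43 and matrin) were chosen with earlier results of these data known. All 8 members were named. From each list at most 6 genes were named by rule, those called in either region comparison with the smallest p in WT. Direct relatives of a member could be named whatever their values. Further called genes of some lists were named outside this rule, after their values were seen, and are marked so above. Values of some genes of these lists are not reported here.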

Additional observations from a re-analysis of the deposited data

How the results depend on the processing

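Of 688 recomputed differences of the 8 genes, 628 kept their direction and their side of the threshold and 36 changed sign. With the sign kept, 13 lost a call and 11 gained one. A change of sign was counted only as such, also where the threshold was crossed, as for Matr3 between regions in SMA mice. Differences averaged over both regions were counted for Sqstm1 only. Those of the other members, among them 0.006 for Vapb, 0.010 for Sod1 and 0.352 for Ubqln2, were left out of this count. The cause of these changes was not tested.

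Between regions, higher genes made up 65.4% of the calls in WT mice, and 55.6% under median-of-ratios scaling, 51.7% under quantile normalization and 44.2% under equal sums without Rn45s; in SMA mice they made up 44.2%, and 53.8% under median-of-ratios scaling. With only the compared libraries, 2415 genes and 1 member were called between regions in SMA mice, against 4295 and 2 with all libraries. With the replicate number as a term (replicate block), 3848 genes and 3 members were called between regions in WT mice, Optn being lost (adjusted p = 0.0524), against 3967 and 4 without it, and 4138 genes and 2 members in SMA mice. Correlations of deviations between groups lay between -0.34 and 0.08. With 1 replicate difference per group, these cannot tell whether libraries of the same replicate number came from the same mouse. The main fit assumed no pairing.

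Between SMA and WT mice, where no gene was called, the alternatives other than leaving out a library gave 0 to 3. In motor neurons, 1 gene was called with no filter. In white matter it was 1 under quantile normalization, 1 with only the compared libraries and 1 by voom. Over both regions, it was 2 with a pseudocount of 0.1, 2 with 0.5, 3 under quantile normalization and 1 by voom.

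Leaving out each library in turn gave 0 to 123 genes called between SMA and WT mice in motor neurons, 0 to 1 in white matter, 0 to 8 over both regions and 0 to 17 in the interaction. The counts of 123, 8 and 17 arose without SMA motor neuron replicate 1, 5 over both regions without its replicate 2, 1 over both regions without WT white matter replicate 2, and 1 in white matter without either SMA motor neuron library. Between regions it gave 2015 to 5333 genes and 2 to 5 members in WT mice, and 2272 to 5539 genes and 0 to 4 members in SMA mice. The lowest member counts were without WT motor neuron replicate 1 and without SMA white matter replicate 2. A lone library left in a group was assumed to vary like the other groups.

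Sign changes with scaling touched uncalled values. For SMA against WT in white matter, median-of-ratios scaling, quantile normalization and equal sums without Rn45s gave -0.22, -0.26 and -0.25 for Sod1, -0.10, -0.13 and -0.13 for Tardbp, and -0.16, -0.19 and -0.19 for Matr3, and the last 2 gave -0.004 and -0.015 for Vapb. In the interaction they gave 0.18, 0.17 and 0.16 for Sod1, and quantile normalization gave 0.041 for Matr3. Between regions in WT mice, quantile normalization gave -0.056 for Sod1 and -0.18 for Matr3, and equal sums without Rn45s gave -0.13 for Matr3. In SMA mice, median-of-ratios scaling gave 0.10 for Matr3.

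Leaving out each library in turn changed the sign of further differences, which ranged as follows. For SMA against WT in motor neurons they ran from -0.35 to 0.18 for Sod1, -1.23 to 0.46 for Tardbp, -0.23 to 0.13 for Vcp, -0.12 to 0.27 for Sqstm1 and -1.28 to 0.88 for Matr3. In white matter they ran from -0.39 to 0.60 for Sod1, -0.11 to 0.51 for Tardbp and -0.20 to 0.53 for Matr3. In the interaction they ran from -0.68 to 0.30 for Sod1, -1.43 to 0.26 for Tardbp and -1.44 to 0.72 for Matr3. Between regions they ran from -0.093 to 0.634 for Matr3 in WT mice, and in SMA mice from -1.17 to 0.99 for Matr3, -0.38 to 0.82 for Ubxn2a and -0.55 to 0.85 for Vapa.

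The lowest depth behind a member's value was 290 reads, for Optn.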
